A study of Homo sapiens with 15 samples.

Results

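The 10 genes described here are transcription regulators of plasma cells and B cells together with cereblon: IRF4, PRDM1, POU2AF1, MYC, MAF, IKZF1, IKZF3, PAX5, BCL6 and CRBN. They were chosen by gene symbol, with earlier results of these data known, and all 10 were found among the 20468 genes of both expression tables. RNA-Seq libraries had been made from 2 established human multiple myeloma (MM) cell lines, MM.1S and RPMI8226, after 48 h of culture with or without HS5 cells, an established human bone marrow stromal line. In monoculture (MONO) the MM cells grew alone in separate wells. In transwell culture (TSW) they sat in the upper chamber over a layer of HS5 cells, reached by soluble factors but not by the cells, and in coculture (CO) they lay in the lower chamber of the same wells in contact with HS5 cells. Per the study's methods, MM cells were collected by sorting for CD90- CD38+ cells, and a small share of HS5 cells remained in CO. Wells with HS5 cells held MM cells and medium in both chambers, and so more of each than MONO wells. The methods name a wash and trypsin for the co-culture conditions and not for MONO. Comparisons with MONO include these differences. MM.1S had 3 libraries per condition and RPMI8226 had 2, which makes 15. Nothing in the labels says that replicates came from separate cultures, so p-values measure the spread between these libraries, which may be technical.

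Plasma cells arise from B cells when IRF4 and PRDM1 (BLIMP1) shut down the B cell and germinal centre programs held by PAX5 and BCL6 and open the secretory program. MM cells keep this identity and depend on IRF4 and MYC, while the Ikaros factors IKZF1 and IKZF3 hold IRF4 and MYC active. Cereblon, the substrate receptor of a CUL4 ubiquitin ligase, is the target of thalidomide and its analogs, which redirect the ligase to IKZF1 and IKZF3, so the level of these genes bears on how that drug class acts in MM.

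Expression is given as RPKM, the number of fragments scaled to transcript length and to the library's total of fragments on genes. The fragments behind the values were recovered from the spacing of low values, and a library held 9008909 fragments in replicate 1 of MM.1S MONO and between 12479636 and 19050586 in the other libraries. At these depths 1 fragment on a transcript of 2 kb was worth an RPKM between 0.02625 and 0.0555, a limit that covers counting error only. Replicate 1 of MM.1S MONO also stood apart from its replicates. Its mean Euclidean distance to the other MONO libraries over the tested genes was 43.8, where these had 34.9 and 35.0 and libraries of the other conditions and line had between 15 and 21.5. Some results of MM.1S against MONO moved by more than 1.5 times or changed their call without that library. For those of the 10 genes that were tested, both values are given there. For other genes named below only lost calls are given, so their uncalled MM.1S values may lean on that library.

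Both lines carried the transcripts of plasma cells. XBP1, the factor of the secretory program, had a mean RPKM of 421.3 ± 17.1 (SD, n = 3) in MM.1S MONO and 191.2 ± 0.637 (n = 2) in RPMI8226 MONO, and SDC1 (CD138) had 163.7 ± 18.8 and 71.8 ± 1.92. CD38, on which the cells had been sorted, JCHAIN, MZB1 and TNFRSF17 (BCMA) were present in every library as well. SLAMF7, another plasma cell receptor, had 94.05 ± 6.61 in MM.1S MONO but only 2 fragments in each RPMI8226 MONO library. Other plasma cell genes were near 0 in MONO of both lines, with a mean RPKM of 0.0871 and 0.113 for CD27, of 0.111 and 0.0273 for FCRL5 and of 0.0762 and 0.177 for ZBTB20. Of the B cell markers, MS4A1 (CD20) had no fragment in any of the 15 libraries and CD22 at most 2. Others were present: BLNK in both lines (10.6 ± 0.5065 in MM.1S MONO and 12.9 ± 0.191 in RPMI8226 MONO), CD79B (7.42 ± 1.85), CR2 (7.18 ± 2.37) and CD40 (3.88 ± 0.318) in MM.1S, and BLK (8.47 ± 0.104) and FCER2 (4.16 ± 0.351) in RPMI8226. CD27, FCRL5, ZBTB20 and these B cell genes were chosen after their values were seen. Main plasma cell markers were thus present in both lines, next to some B cell transcripts that differed by line.

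Levels of these genes already differed between TSW and MONO, and the lines took different courses. Levels were compared with limma on log2(RPKM + 1), and calls needed a change of more than 1.5-fold on this scale besides p under 0.05 after Benjamini-Hochberg adjustment. The scale understates the change of low genes. The filter of a mean RPKM of at least 1 in the line left 9 of the 10 genes in each line, without PAX5. BCL6 passed only through its levels in TSW and CO, so the direction of its calls against MONO was set by that filter. In MM.1S, TSW against MONO, 4 genes were called and all were higher (PRDM1, POU2AF1, MAF and BCL6), beside 10.6% of the 10153 genes tested. In CO against MONO of that line 3 were called, all higher (PRDM1, MAF and BCL6), beside 11.8%. RPMI8226 had 3 genes higher (PRDM1, POU2AF1 and BCL6) and 2 lower (IRF4 and MYC) in TSW than in MONO, beside 32.5% of its 10319 genes, and in CO 5 were higher (with IKZF3 and MAF added) and 2 lower, beside 39.3%. Both comparisons of a line share its MONO libraries, so their values are set side by side and not counted as repeats of each other. Overlap of replicates is mentioned below only to describe the values, since few libraries separate easily. In RPMI8226 all 9 genes tested, CRBN included, separated from MONO in both comparisons. The share of all genes that separated is not given here, so separation is not read as a result. The genes were chosen with earlier results of these data known, so their counts are not read as an excess over the shares of all genes. In bulk samples such as these, fewer cells with a transcript and less of it per cell cannot be told apart.

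**Figure D1:**
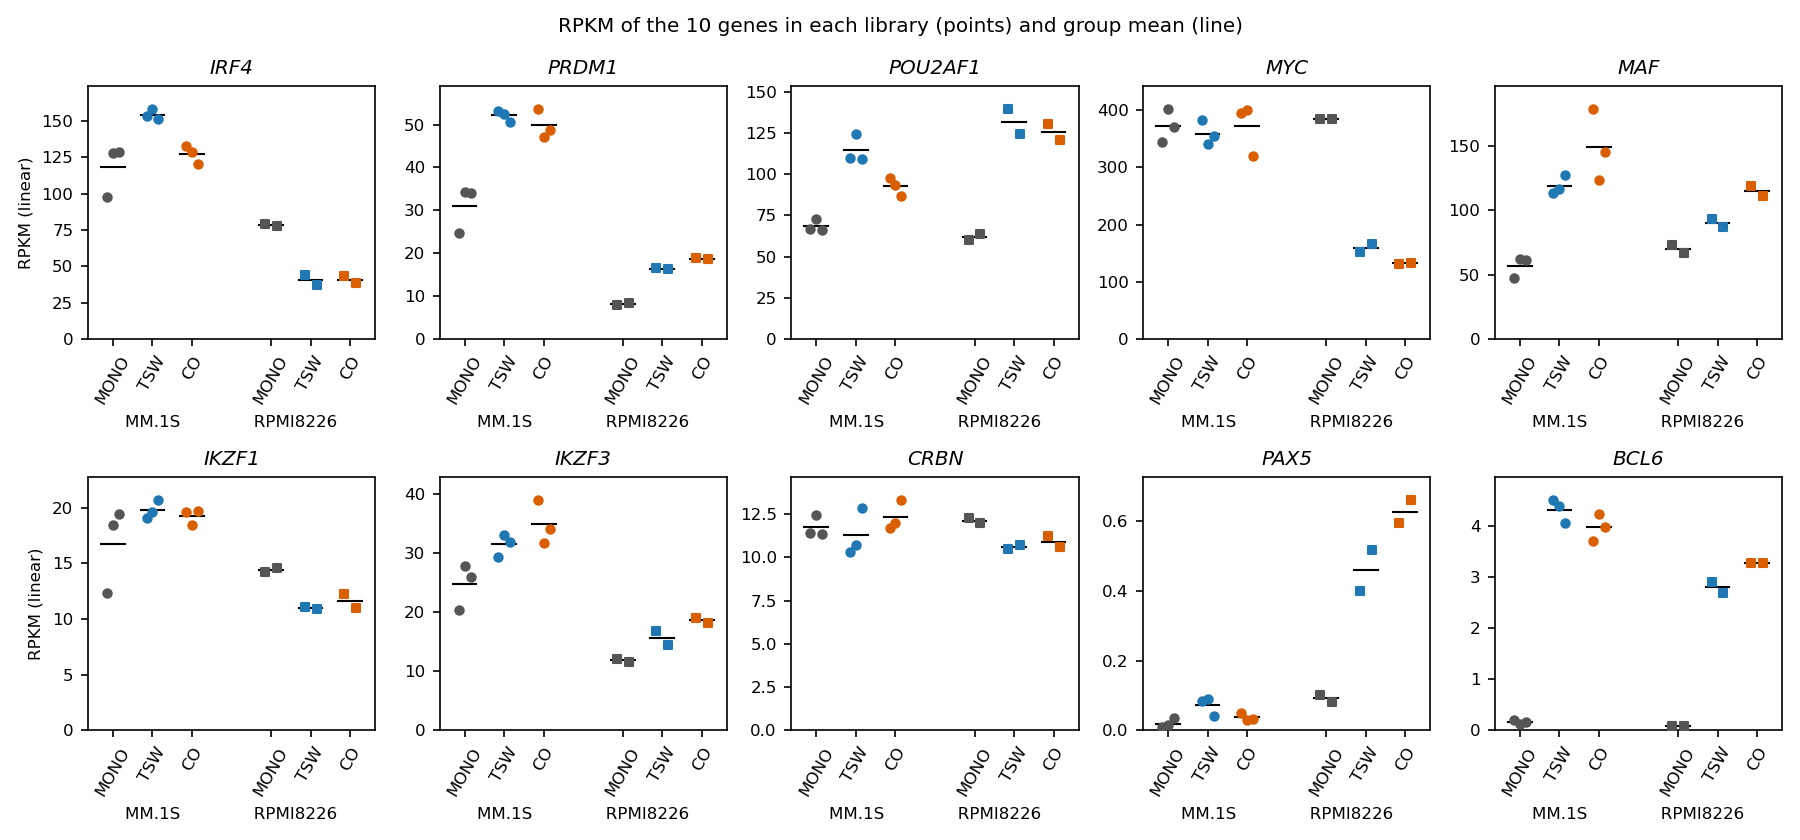
RPKM (linear axis from 0) of the 10 genes in every library, with circles for MM.1S, squares for RPMI8226 and a line at the mean of each condition. IRF4 and MYC dropped in RPMI8226 TSW and CO but not in MM.1S, where MYC lay between 320.5 and 402.2 in all 9 libraries, and BCL6 stood between 2.70 and 4.50 in all TSW and CO libraries against at most 0.2035 in MONO.

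IRF4, the factor on which plasma cells and MM cells depend, had RPKM values of 97.7, 127.8 and 128.3 in the MM.1S MONO libraries, 153.3, 158.1 and 151.4 in TSW and 132.5, 128.6 and 120.3 in CO. In RPMI8226 it had 78.9 and 77.7 in MONO, 43.7 and 37.2 in TSW and 43.3 and 38.3 in CO. All RPMI8226 libraries with HS5 cells in the plate lay far below MONO, and in MM.1S the TSW libraries lay above MONO whereas the CO libraries overlapped with it. The level in RPMI8226 fell to 0.516 of MONO in TSW (log2 fold change -0.94, SE 0.0905, adjusted p = 7.67e-06) and to 0.521 in CO (-0.93, SE 0.0905, adjusted p = 6.12e-06). In MM.1S the log2 fold change in TSW was 0.40 (SE 0.11, adjusted p = 0.0246), under the fold threshold, and 0.27 (adjusted p = 0.0191) without replicate 1 of MONO. For CO against MONO it was 0.12, with a 95% interval from -0.13 to 0.37 (adjusted p = 0.442), and -0.01 (adjusted p = 0.921) without replicate 1 of MONO.

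PRDM1 encodes BLIMP1, the repressor that closes the B cell program. Its RPKM in MM.1S was 24.7, 34.2 and 34.2 in MONO, 53.2, 52.6 and 50.6 in TSW and 53.6, 47.1 and 48.8 in CO, and in RPMI8226 it was 7.81 and 8.34 in MONO, 16.4 and 16.3 in TSW and 18.9 and 18.55 in CO. Every TSW and CO library of both lines lay above every MONO library of its line, and the level in MM.1S MONO was above that in any RPMI8226 library. In RPMI8226 the mean in TSW was 2.03 times that in MONO (log2 fold change 0.94, SE 0.078, adjusted p = 2.68e-06), and in CO 2.32 times (1.12, SE 0.078, adjusted p = 5.05e-07). MM.1S rose to 1.68 times MONO in TSW (0.75, SE 0.12, adjusted p = 0.001325) and to 1.61 times in CO (0.68, SE 0.12, adjusted p = 0.0023). Without replicate 1 of MM.1S MONO the log2 fold changes were 0.59 (SE 0.075, adjusted p = 0.000161) in TSW and 0.53 (SE 0.075, adjusted p = 0.000357) in CO, and the latter no longer passed the fold threshold. So in RPMI8226 transcripts of PRDM1 rose where those of IRF4 fell.

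POU2AF1 (OBF1) is the coactivator through which octamer factors act on immunoglobulin genes in B cells and plasma cells. In MM.1S its RPKM was 66.8, 72.6 and 66.3 in MONO, 110.0, 124.1 and 109.1 in TSW and 97.9, 93.5 and 86.5 in CO. In RPMI8226 the values were 59.8 and 63.8 in MONO, 139.5 and 124.1 in TSW and 130.1 and 120.5 in CO. The conditions of MM.1S did not overlap, with CO between MONO and TSW, while TSW and CO of RPMI8226 overlapped with each other and lay at about double MONO. The mean ratio to MONO was 2.13 in TSW (log2 fold change 1.08, SE 0.079, adjusted p = 1.0e-06) and 2.03 in CO (1.01, SE 0.079, adjusted p = 1.16e-06) of RPMI8226. MM.1S had a ratio of 1.67 in TSW (0.73, SE 0.092, adjusted p = 0.000235) and of 1.35 in CO, where the log2 fold change of 0.43 (SE 0.092, adjusted p = 0.00604) stayed under the fold threshold. The difference between CO and TSW in MM.1S, -0.30 on the log2 scale, did not pass the adjustment (adjusted p = 0.579, limma).

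MYC drives growth and biosynthesis and is kept active by IRF4 in MM cells. Its RPKM in MM.1S was 344.5, 402.2 and 371.0 in MONO, 382.2, 340.3 and 355.3 in TSW and 395.8, 399.6 and 320.5 in CO. RPMI8226 had 384.3 and 384.4 in MONO, 152.0 and 165.8 in TSW and 131.0 and 133.5 in CO. The 9 MM.1S libraries overlapped across all conditions, and in RPMI8226 the conditions were separate, with CO at the lowest level. MYC in RPMI8226 fell to 0.4135 of MONO in TSW (log2 fold change -1.27, SE 0.066, adjusted p = 9.92e-08) and to 0.344 in CO (-1.53, SE 0.066, adjusted p = 2.05e-08). In MM.1S the log2 fold change was -0.05 in TSW, with a 95% interval from -0.31 to 0.21, and -0.01 in CO, with an interval from -0.27 to 0.25. These intervals leave out a change of 1.5-fold in either direction for MM.1S, but their centres lay so near 0 that their sign changed with quantile normalization. Without replicate 1 of MONO they were -0.11 in TSW (adjusted p = 0.516) and -0.06 in CO (adjusted p = 0.704).

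MAF is a basic leucine zipper factor, and both lines carry a translocation that places it beside an immunoglobulin gene. In MM.1S it had RPKM values of 47.55, 62.4 and 61.3 in MONO, 113.7, 116.4 and 127.1 in TSW and 178.8, 123.6 and 145.1 in CO. In RPMI8226 it had 73.1 and 66.7 in MONO, 93.2 and 87.3 in TSW and 118.8 and 110.8 in CO. All libraries with HS5 cells lay above MONO in both lines, and in RPMI8226 the CO libraries lay above the TSW libraries as well. MM.1S rose to 2.09 times MONO in TSW (log2 fold change 1.06, SE 0.14, adjusted p = 0.000413) and to 2.61 times in CO (1.36, SE 0.14, adjusted p = 6.52e-05). RPMI8226 rose to 1.64 times in CO (0.71, SE 0.075, adjusted p = 1.1e-05), and in TSW its log2 fold change of 0.365 (SE 0.075, adjusted p = 0.00148) was under the fold threshold.

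IKZF1 (Ikaros) and IKZF3 (Aiolos) are the zinc finger factors that cereblon hands to degradation under thalidomide analogs. IKZF1 had RPKM values of 12.4, 18.4 and 19.5 in MM.1S MONO, 19.1, 19.6 and 20.7 in TSW and 19.6, 18.4 and 19.7 in CO, and in RPMI8226 of 14.25 and 14.6 in MONO, 11.1 and 10.9 in TSW and 12.2 and 10.97 in CO. The low value in MM.1S MONO was that of replicate 1 and the other libraries of the line overlapped, whereas the RPMI8226 MONO libraries lay above all others of their line. The log2 fold changes of IKZF1 in RPMI8226 were -0.36 in TSW (adjusted p = 0.00297) and -0.29 in CO (adjusted p = 0.00913), both under the fold threshold. In MM.1S they were 0.25 and 0.21 (adjusted p = 0.209 and 0.265), and 0.06 and 0.02 without replicate 1 of MONO (adjusted p = 0.571 and 0.840).

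IKZF3 had RPKM values of 20.3, 27.8 and 25.98 in MM.1S MONO, 29.3, 33.0 and 31.9 in TSW and 38.8, 31.7 and 34 in CO. In RPMI8226 it had 12.01 and 11.6 in MONO, 16.7 and 14.5 in TSW and 19.1 and 18.2 in CO. The MONO libraries were the lowest of each line without overlap. In RPMI8226 IKZF3 was higher and IKZF1 lower than in MONO, but in TSW neither passed the fold threshold and in CO only IKZF3 did. The level in RPMI8226 CO was 1.58 times that in MONO (log2 fold change 0.62, SE 0.088, adjusted p = 0.000103). The other differences were under the fold threshold, with 0.37 in RPMI8226 TSW (adjusted p = 0.00367), 0.34 in MM.1S TSW (adjusted p = 0.0601) and 0.49 in MM.1S CO (adjusted p = 0.0137). Without replicate 1 of MM.1S MONO they were 0.22 in TSW (adjusted p = 0.0989) and 0.36 in CO (adjusted p = 0.0128).

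CRBN, which encodes cereblon itself, moved little. Its RPKM was 11.4, 12.45 and 11.4 in MM.1S MONO, 10.3, 10.7 and 12.8 in TSW and 11.7, 12 and 13.3 in CO, and in RPMI8226 it was 12.3 and 11.99 in MONO, 10.46 and 10.7 in TSW and 11.3 and 10.6 in CO. The MM.1S conditions overlapped, and the RPMI8226 MONO libraries lay slightly above the others. The values rest on 281 to 648 fragments in a library. The log2 fold changes in MM.1S were -0.06 in TSW, with a 95% interval from -0.28 to 0.17, and 0.06 in CO, with an interval from -0.16 to 0.29 (adjusted p = 0.704 and 0.658). In RPMI8226 they were -0.18 in TSW (interval from -0.36 to -0.00015, adjusted p = 0.0711) and -0.14 in CO (interval from -0.32 to 0.04, adjusted p = 0.143). None of these 4 intervals reached a change of 1.5-fold. Under alternative settings the RPMI8226 values were as small as -0.105 in TSW and -0.0389 in CO.

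**Figure D2:**
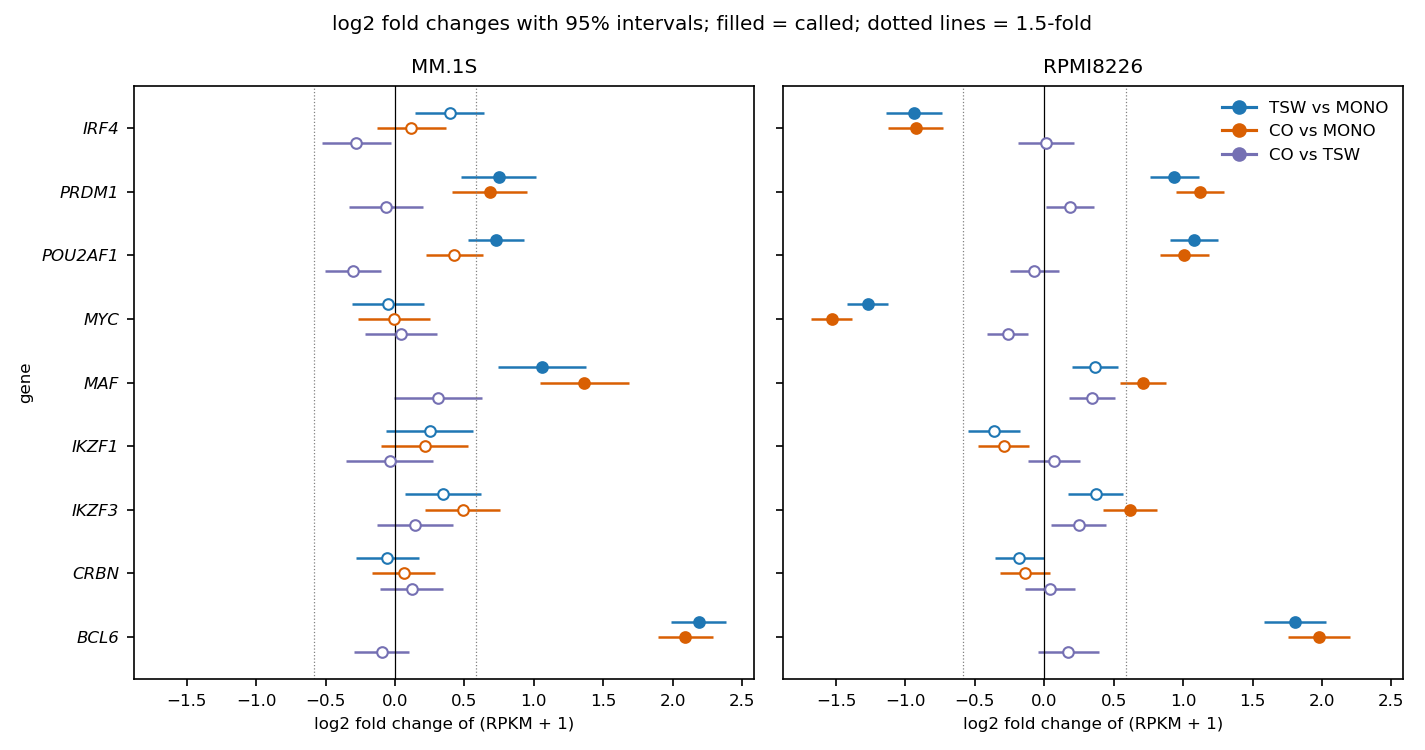
Log2 fold changes of RPKM + 1 for the 9 genes tested, with 95% intervals from limma, filled points for called genes and dotted lines at a fold change of 1.5. The intervals of CRBN lie within the dotted lines in every comparison. Against MONO, IRF4 and MYC lie to the left in RPMI8226 TSW and CO, and BCL6 lies farthest to the right in both lines.

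BCL6, the repressor of the germinal centre stage, which BLIMP1 shuts down in plasma cells, showed the largest change of the 10 genes. Its RPKM in MM.1S was 0.2035, 0.131 and 0.168 in MONO, 4.50, 4.38 and 4.06 in TSW and 3.72, 4.23 and 3.98 in CO, and in RPMI8226 it was 0.09445 and 0.0796 in MONO, 2.90 and 2.70 in TSW and 3.28 and 3.28 in CO. MONO libraries held between 9 and 19 fragments of BCL6, and the TSW and CO libraries between 369 and 509, so the groups were far apart in both lines. The mean RPKM in MM.1S was 25.8 times that in MONO in TSW and 23.8 times in CO. In RPMI8226 the ratios were 32.2 and 37.7. On the log2(RPKM + 1) scale, which compresses such a change, the log2 fold changes were 2.19 (SE 0.090, adjusted p = 6.89e-08) and 2.09 (SE 0.090, adjusted p = 4.83e-08) in MM.1S and 1.805 (SE 0.099, adjusted p = 1.38e-07) and 1.98 (SE 0.099, adjusted p = 5.23e-08) in RPMI8226. With a pseudocount of 0.1 they were 4.05 and 3.94 in MM.1S and 3.955 and 4.18 in RPMI8226. BCL6 passed the expression filter only through TSW and CO, so its direction was set by that filter. The p-values of BCL6 therefore add no support for that direction. By their RPKM values, BCL6 and its repressor PRDM1 were higher side by side, in TSW as in CO. Even so, BCL6 stayed low among expressed genes, above only 25.1% of the tested genes in MM.1S TSW and above fewer in the other conditions of both lines.

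Promoters could be read for 7 of the 10 genes, with 12 start sites in GRCh38.p14 RefSeq, in windows of 300 bases from 250 before to 50 after the start. They were searched for 5 motifs, those of STAT (TTCNNNGAA), AP-1 (TGANTCA), the E-box (CACGTG), the octamer (ATGCAAAT) and the interferon regulatory factors (AANNGAAA), held by 7.66%, 7.71%, 7.26%, 1.77% and 22.8% of all 35116 promoters. BCL6 is shown because it changed the most and because its first promoter held 4 matches to the STAT motif, a number reached by 7 promoters (0.0199%) and picked after its count was seen, as the rarest of the matches found. The second of 3 IKZF1 promoters held 1 interferon regulatory factor match, at -50, and those of IRF4, MAF, PAX5 and CRBN held no match to the 5 motifs. Both strands were searched, capitals mark the matches, and a match describes the sequence without showing that a factor binds. The first BCL6 promoter lies at chr3:187745419-187745718 on the minus strand.

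BCL6 first promoter: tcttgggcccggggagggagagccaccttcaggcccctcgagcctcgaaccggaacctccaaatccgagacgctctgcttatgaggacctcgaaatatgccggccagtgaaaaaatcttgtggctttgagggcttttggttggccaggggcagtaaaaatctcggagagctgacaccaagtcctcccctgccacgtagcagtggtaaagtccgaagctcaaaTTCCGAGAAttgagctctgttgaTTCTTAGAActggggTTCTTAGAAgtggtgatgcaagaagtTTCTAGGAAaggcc

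The second BCL6 promoter, at chr3:187736452-187736751 on the minus strand, held 1 match to the AP-1 motif, at -77 from the start.

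BCL6 second promoter: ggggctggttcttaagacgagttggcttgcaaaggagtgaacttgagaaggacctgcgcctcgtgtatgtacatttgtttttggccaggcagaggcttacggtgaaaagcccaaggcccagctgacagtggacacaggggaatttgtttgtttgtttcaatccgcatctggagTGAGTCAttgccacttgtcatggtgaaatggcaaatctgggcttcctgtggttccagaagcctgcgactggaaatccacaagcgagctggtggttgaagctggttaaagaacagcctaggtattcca

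PRDM1, whose product represses BCL6, also had 1 AP-1 match, at -42, in its promoter at chr6:106098691-106098990 on the plus strand, and none in the one at chr6:106086086-106086385. RPKM is summed per gene, so the values do not tell which start was used.

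PRDM1 second promoter: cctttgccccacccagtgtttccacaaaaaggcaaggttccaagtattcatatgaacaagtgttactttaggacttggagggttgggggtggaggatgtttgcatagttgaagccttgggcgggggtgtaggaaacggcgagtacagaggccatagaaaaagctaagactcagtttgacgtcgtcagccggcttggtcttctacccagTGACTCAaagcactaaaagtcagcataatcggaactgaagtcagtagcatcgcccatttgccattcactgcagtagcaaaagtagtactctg

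PAX5, the factor that commits cells to the B cell fate, stayed under the filter in both lines. In RPMI8226 it had RPKM values of 0.103 and 0.0805 in MONO, 0.4005 and 0.516 in TSW and 0.5955 and 0.659 in CO, which rest on 14 and 13, 81 and 101, and 106 and 135 fragments. In MM.1S the libraries held only 1, 3 and 5 fragments in MONO, 13, 15 and 6 in TSW and 9, 5 and 5 in CO. The RPMI8226 conditions did not overlap and the mean RPKM was 5.00 times that of MONO in TSW and 6.84 times in CO, at levels that remained under 1. Without the filter, the log2 fold change of RPKM + 1 in RPMI8226 was 0.42 in TSW (adjusted p = 0.00203) and 0.58 in CO (adjusted p = 0.000501), both under the fold threshold. Voom and limma on the recovered fragments without a filter, chosen after the data were seen, gave 2.285 (adjusted p = 0.00018) and 2.75 (adjusted p = 2.7e-05) there. In MM.1S TSW the same fit gave 1.76 (adjusted p = 0.027), on counts too low to set its size.

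CO and TSW shared their wells and differed in chamber and in contact with HS5 cells. Between them limma called 0 of the 9 genes tested in MM.1S, beside 0.414% of all genes, and 0 of 9 in RPMI8226, beside 4.29%. Voom on the recovered fragments also called 0 in each line. At an unadjusted p under 0.05 there were 2 genes in MM.1S, POU2AF1 and IRF4 (-0.28, adjusted p = 0.998), both lower in CO. In RPMI8226 there were 4 (IKZF3, MYC, MAF and PRDM1), of which MAF (log2 fold change 0.34, adjusted p = 0.00836) and MYC (-0.26, adjusted p = 0.0161) passed the adjusted p but not the fold threshold. BCL6 had -0.10 in MM.1S (95% interval from -0.29 to 0.10) and 0.17 in RPMI8226 (interval from -0.05 to 0.39).

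HS5 transcripts moved with CO, and their level is given beside these results. Of 39 stromal markers, between 18 and 24 had a fragment in a MONO or TSW library and 37 or 38 in a CO library. Their summed RPKM in MM.1S was 35.0, 39.4 and 39.9 in MONO, 24.98, 24.8 and 25.7 in TSW and 225.8, 241.6 and 208.7 in CO, with CAV1 as the most abundant marker in MONO and TSW and MMP1 in CO. In RPMI8226 the sum was 4070 and 4395 in MONO, 1747 and 2034 in TSW and 2229 and 2472 in CO, of which FN1, a gene this line expresses itself, made up between 87.7% and 98.1%. The other 38 markers summed to 80.4 and 85.6 in MONO, 68.6 and 72.3 in TSW and 221.2 and 302.9 in CO of RPMI8226. COL1A2, COL3A1, LUM, POSTN, MMP1, MMP2, TFPI2 and SERPINB2 had 0 fragments in all 10 MONO and TSW libraries, and only POSTN also had 0 in CO. In MM.1S 18 of the 21 markers tested were called in CO against TSW, in RPMI8226 12 of 19, all higher in CO, but most of these passed the expression filter only through CO, so their direction was set by that filter. Without the CO libraries 5 of the 21 and 8 of the 19 would have passed, of which 2 and 2 were called. BCL6, PRDM1 and POU2AF1 in both lines, MAF in MM.1S and IRF4 and MYC in RPMI8226 were called in TSW against MONO. In RPMI8226 MAF (0.365 in TSW and 0.71 in CO) and IKZF3 (0.37 and 0.62) were called only in CO against MONO. The sum without FN1 was lower in RPMI8226 TSW than in MONO through CAV1 (28.4 ± 0.363 to 17.5 ± 0.266) and IGFBP3 (28.5 ± 2.94 to 7.96 ± 1.34), which this line expresses itself, while CXCL8 (log2 fold change 2.04), CXCL12 (0.79) and LOX (0.68) were called higher there. CXCL8 passed the filter only through TSW and CO, and LOX only through CO. The part of HS5 transcripts in these results was not tested.

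**Figure D3:**
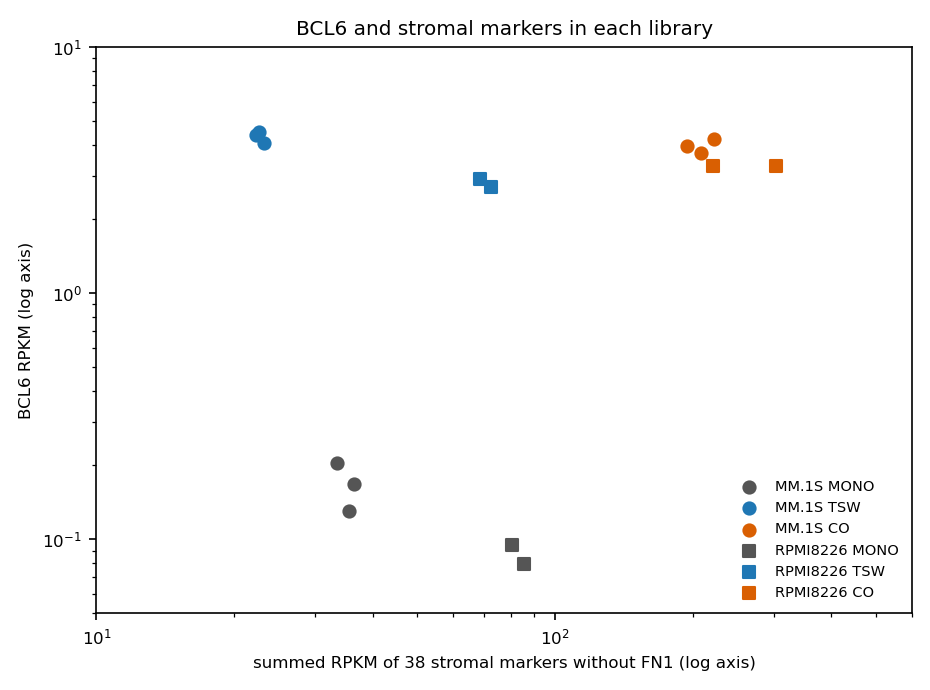
BCL6 RPKM (log axis) against the summed RPKM of 38 stromal markers without FN1 (log axis), with 1 point per library, circles for MM.1S and squares for RPMI8226. BCL6 was between 2.70 and 4.50 in TSW libraries, whose marker sums lay between 22.2 and 72.3, and between 3.28 and 4.23 in CO libraries, whose sums lay between 194.3 and 302.9.

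Whether the lines differed in these responses was tested directly with limma over the 15 libraries, as RPMI8226 minus MM.1S. For TSW against MONO 6 of the 9 genes differed (IRF4, MYC, MAF, IKZF1, BCL6 and POU2AF1) on the log2(RPKM + 1) scale, beside 39.8% of 11075 genes, and for CO against MONO 6 (MYC, IRF4, POU2AF1, MAF, IKZF1 and PRDM1), beside 45.2%. For CO against TSW 0 differed, beside 0.822%, with 1 gene at an unadjusted p under 0.05 (BCL6). IRF4 and MYC had the largest differences, at -1.34 (SE 0.16, adjusted p = 2.52e-05) and -1.22 (SE 0.15, adjusted p = 3.33e-05) in TSW and at -1.05 (adjusted p = 0.000154) and -1.53 (adjusted p = 3.19e-06) in CO. These 4 differences, and that of POU2AF1 in CO (0.58, adjusted p = 0.0024), passed with each of the 15 libraries left out in turn. The number of genes that differed was 3 for TSW without replicate 1 of RPMI8226 MONO or replicate 2 of its TSW, and 3 for CO without replicate 1 of RPMI8226 MONO or replicate 2 of its CO. The difference of BCL6 in TSW (-0.38) depended on the pseudocount. With 0.1 in place of 1 it was -0.10 (adjusted p = 0.727), and the ratio of mean RPKM was higher in RPMI8226 (32.2) than in MM.1S (25.8). In CO the difference of PRDM1 was lost in 13 of the 15 fits that each left out 1 library and with a replicate block (adjusted p = 0.0702), and that of IKZF1 in 12 of the 15. In TSW that of POU2AF1 was lost in 9 of the 15 and that of IKZF1 in 5. CRBN and IKZF3 did not differ between lines by this test in either comparison with MONO (CRBN -0.12 and -0.20, adjusted p = 0.505 and 0.249, and IKZF3 0.02 and 0.13, adjusted p = 0.926 and 0.578).

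The levels of the 10 genes can be ordered within a condition, since RPKM is per length. MYC stood highest in all 6 groups, above 95.9% to 98.7% of the tested genes. In MM.1S MONO IRF4 (117.9 ± 17.5, SD, n = 3) came next, then POU2AF1 (68.55 ± 3.55) and MAF (57.1 ± 8.28), then PRDM1 (31.0 ± 5.48), IKZF3 (24.7 ± 3.91), IKZF1 (16.8 ± 3.84) and CRBN (11.75 ± 0.611). Replicate values overlapped for PRDM1 and IKZF3 and for IKZF1 and CRBN. In CO of that line MAF (149.2 ± 27.8) lay above IRF4 (127.1 ± 6.21), with overlapping replicates. RPMI8226 MONO had the same leading genes, IRF4 (78.3 ± 0.8045, n = 2), MAF (69.9 ± 4.54) and POU2AF1 (61.8 ± 2.87), but PRDM1 (8.08 ± 0.372) came after CRBN (12.1 ± 0.191). In RPMI8226 CO, POU2AF1 (125.3 ± 6.80) came close below MYC (132.3 ± 1.72), and IRF4 (40.8 ± 3.55) lay below MAF (114.8 ± 5.68). CRBN sat near the middle of the tested genes everywhere, above 51.1% to 54.4% of them.

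Genes of closest pattern were sought for IRF4, PRDM1, MYC and CRBN by Pearson's r of log2(RPKM + 1), centred on the mean of each line, over 15 libraries and 9396 genes, as a description that shares depth and condition among its points. PRDM1 was most like PLCG2, a phospholipase of B cell receptor signalling (r = 0.992), TP53INP1 (0.9905) and CSGALNACT2 (0.989). MYC was most like EARS2, a mitochondrial aminoacyl-tRNA synthetase (0.987), DUSP7 (0.984) and the RNA helicase DDX19A (0.982), and IRF4 was most like the zinc transporter SLC39A14 (0.958), QRSL1 (0.958) and FIGNL1 (0.957). For CRBN, which varied little, the highest were NANP (0.849), TRMT10B (0.810) and VPS33A (0.792). SLC39A14 followed IRF4 from 49.9 ± 1.58 (SD, n = 2) in RPMI8226 MONO to 16.5 ± 2.09 in TSW, and TP53INP1 followed PRDM1 from 25.8 ± 1.08 to 185.1 ± 16.7.

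Around IRF4 and PRDM1, a list of 16 other plasma cell genes showed both directions. In MM.1S 6 of 13 tested were called in TSW (4 higher, 2 lower; median log2 fold change -0.13 against 0.0143 over all genes) and 7 in CO (4 higher, 3 lower; -0.192 against 0.00534). In RPMI8226 7 of 12 were called in TSW (6 higher, 1 lower; 0.62 against -0.0785) and 8 in CO (7 higher, 1 lower; 0.706 against -0.0944). The shares of all genes called in the same order were 10.6%, 11.8%, 32.5% and 39.3%. PIM2, a survival kinase, XBP1 and ATF6, a sensor of endoplasmic reticulum stress, rose in all 4 comparisons, PIM2 to a log2 fold change of 1.32 and 1.06 in MM.1S and of 1.93 and 1.76 in RPMI8226. TNFRSF17 fell from an RPKM of 172.7 ± 37.99 (SD, n = 3) in MM.1S MONO to 48.2 ± 0.918 in TSW and 37.9 ± 4.38 in CO, and from 70.9 ± 2.92 (n = 2) in RPMI8226 MONO to 5.42 ± 1.39 and 4.05 ± 0.12. JCHAIN, which joins IgM and IgA chains, fell in MM.1S (-0.85 and -0.91) and rose in RPMI8226 (0.80 and 1.02), a difference between lines that passed its own test (1.65 in TSW, adjusted p = 4.9e-06). CD38 was called higher only in RPMI8226 (1.46 and 1.67), SDC1 in neither line (-0.13 and -0.02 in MM.1S, 0.44 and 0.19 in RPMI8226). The cells had been sorted on CD38, and the part of sorting in its level was not tested. In TSW the difference between lines passed for both, CD38 (1.59, adjusted p = 0.000116) and SDC1 (0.57, adjusted p = 0.00912), and in CO for CD38 (1.53, adjusted p = 0.0001155) and not for SDC1 (0.21, adjusted p = 0.289). ATF6 had 0.92 and 0.93 in MM.1S and 0.69 and 0.65 in RPMI8226 (named there after its values were seen), and the lines did not differ by the test (adjusted p = 0.368 and 0.276). TXNDC5, a disulfide isomerase, was called lower in MM.1S CO (-0.95) and had -0.47 in RPMI8226 CO, under the fold threshold, with no passed difference between lines (adjusted p = 0.22).

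Of 26 genes of the B cell program around PAX5 and BCL6, 6 of 17 tested were called in MM.1S TSW (2 higher, 4 lower; median -0.219), 4 in CO (1 higher, 3 lower; -0.0388), 8 of 14 in RPMI8226 TSW (5 higher, 3 lower; 0.103) and 9 in CO (5 higher, 4 lower; 0.244). Over all genes the shares called in the same order were 10.6%, 11.8%, 32.5% and 39.3%, with medians of 0.0143, 0.00534, -0.0785 and -0.0944. ID3, an inhibitor of E proteins, fell in MM.1S (-1.13 and -1.36) and rose in RPMI8226 (1.69 and 1.38), with a difference between lines of 2.83 in TSW (adjusted p = 4.38e-08). The E protein TCF3 fell in both lines (-0.64 and -0.69 in MM.1S, -0.92 and -1.03 in RPMI8226), and TCF4 in MM.1S TSW (-0.71). SPIB, an ETS factor of B cells, rose from an RPKM of 0.186 ± 0.00688 in RPMI8226 MONO to 3.11 ± 0.425 in TSW, where like BCL6 it passed the filter only through TSW and CO. FOXP1 also rose there (log2 fold change 1.39 and, in CO, 1.46), while IRF8 (-1.13 and -1.06), BCL11A (-0.72 in TSW) and the kinase BLK (-0.83 in CO) fell. MITF rose in MM.1S (1.22 and 1.61) and CIITA, the coactivator of MHC class II genes, fell in MM.1S (-1.08 and -0.84). In RPMI8226 CIITA was under the filter, at an RPKM of 1.38 ± 0.401 in MONO, 0.329 ± 0.103 in TSW and 0.384 ± 0.118 in CO, and the lines did not differ by the test (adjusted p = 0.365 and 0.830). BACH2, a repressor of PRDM1, had an RPKM of 2.37 ± 0.277 in MM.1S MONO and 1.62 ± 0.101 in TSW (-0.36, adjusted p = 0.0171, under the fold threshold). In RPMI8226 it was under the filter, at an RPKM of 0.404 in both libraries of MONO, 0.753 ± 0.0882 in TSW and 0.674 ± 0.1497 in CO, and the difference between lines passed in TSW (0.68, adjusted p = 0.000669) and in CO (0.58, adjusted p = 0.00163), from at most 177 fragments per library of RPMI8226. The ETS factor SPI1 rose in RPMI8226 from an RPKM of 4.57 ± 0.409 to 10.8 ± 0.714 in TSW and 10.07 ± 0.0242 in CO (log2 fold change 1.08 and 0.99, named there after its values were seen), with no passed difference between lines (adjusted p = 0.0656 and 0.0951). It was also called in MM.1S TSW (0.60), but not without replicate 3 of MONO (0.50) or without replicate 1 or 2 of TSW (0.53 and 0.54), nor when scaled by median-of-ratios (0.58) or by quantiles (0.53).

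Few genes of the ligase around CRBN were called in MM.1S, where few genes were called overall (10.6% in TSW and 11.8% in CO). The list of 24 genes held the cereblon ligase and its regulators, and also BSG (CD147) and SLC16A1 (MCT1). Of these, limma called 1 in MM.1S TSW (COPS7A, 0.78), with a median of 0.00844, and 0 in CO. In CO voom called 1, and 8 had an unadjusted p under 0.05. In RPMI8226 6 were called in TSW (1 higher, 5 lower; median -0.184 against -0.0785 over all genes) and 8 in CO (2 higher, 6 lower; -0.291 against -0.0944), beside 32.5% and 39.3% of all genes. The cullin paralogs parted in RPMI8226: CUL4A fell from an RPKM of 29.0 ± 0.2225 (SD, n = 2) to 18.8 ± 0.349 in TSW and 17.0 ± 0.899 in CO, and CUL4B rose from 15.4 ± 1.495 to 24.3 ± 4.596 and 36.3 ± 1.48. The call of CUL4A in TSW (-0.60) was lost with median-of-ratios scaling (-0.53) and quantile normalization (-0.54). The call of CUL4B in TSW (0.62) was lost without replicate 2 of MONO (0.52) or replicate 1 of TSW (0.43). Also lower there were GPS1 (-0.67 and -0.93) and COPS3 (-0.67 and -0.95) of the COP9 signalosome, the NEDD8-activating subunit NAE1 (-0.89 and -0.79) and the transporter SLC16A1 (-0.86 and -0.92), while UBA3, the partner of NAE1, was higher in CO (0.81). The adaptor DDB1 (-0.21 and -0.55), the RING subunit RBX1 (0.19 and -0.29) and the ubiquitin-conjugating enzyme UBE2G1 (-0.02 and 0.27) were not called in RPMI8226, nor in MM.1S (-0.18 and -0.17, -0.26 and -0.55, 0.10 and 0.38).

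A list of 16 genes held substrates of cereblon, IKZF1 and IKZF3 included. All but GLUL and MEIS2 are neosubstrates, taken up under drugs such as thalidomide analogs, and the methods name no such drug for these cultures. Of the list, 2 of 14 were called in MM.1S TSW (1 higher, 1 lower) and 1 in CO (higher). In RPMI8226 2 of 13 were called in TSW (1 higher, 1 lower) and 4 in CO (2 higher, 2 lower). The medians were 0.0398, 0.132, -0.0667 and -0.0803. Over all genes the shares called were 10.6%, 11.8%, 32.5% and 39.3%, with medians of 0.0143, 0.00534, -0.0785 and -0.0944. RAB28, a small GTPase, was higher in RPMI8226 (0.81 and 0.91) and in MM.1S (0.615 and 0.61), but in MM.1S TSW not without replicate 3 of TSW (0.58) and in CO not without replicate 1 of MONO (0.58) or replicate 3 of CO (0.58), and in neither with quantile normalization (0.575 and 0.58). The chromatin remodelling subunit ARID2 fell in RPMI8226 (-1.001 and -0.68; -0.58 in CO with median-of-ratios scaling and -0.56 with quantile normalization, not called), as did the termination factor GSPT1 in CO (-0.70; -0.57 with quantile normalization, not called), and GLUL, glutamine synthetase, fell in MM.1S TSW (-0.69). CSNK1A1 had 0.52 and 0.37 in MM.1S and 0.25 and 0.30 in RPMI8226, and ZFP91 had 0.23 and 0.25, and 0.01 and 0.29, none of them called. Among the MM.1S MONO libraries the RPKM ranged from 45.7 to 67.4 for CSNK1A1 and from 19.7 to 26.3 for ZFP91. Their values in MM.1S thus lean on single libraries.

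The relatives of IKZF1, IKZF3 and POU2AF1 were mostly at low levels. Of the 8 genes of the Ikaros and octamer families 7 were tested in MM.1S and 5 in RPMI8226, with 1 called in MM.1S TSW (POU2AF1), 1 in MM.1S CO (POU2F2), 1 in RPMI8226 TSW (POU2AF1) and 2 in RPMI8226 CO (POU2AF1 and IKZF3), all higher, and with medians of 0.345, 0.428, -0.112 and 0.123, beside the same shares and medians of all genes. The octamer factor POU2F2 had 0.60 in MM.1S CO, a call that was lost without replicate 2 (0.50) or 3 (0.47) of MONO or replicate 1 of CO (0.53), with quantile normalization (0.50), with no expression filter (adjusted p = 0.0509) and with only the 2 conditions compared (adjusted p = 0.0579). POU2F1 had 0.37 and 0.47 in MM.1S and -0.24 and -0.17 in RPMI8226, and IKZF5 had 0.26 and 0.34, and -0.11 and 0.12, none of them called. The RPKM of IKZF5 ranged from 4.06 to 6.88 among the MM.1S MONO libraries, so its values in MM.1S lean on single libraries. IKZF2 had an RPKM between 0.199 and 0.485 in the means of the 6 groups and IKZF4 between 0.901 and 1.25.

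Of 16 partners and regulators of MYC, 2 of 15 were called in MM.1S TSW (both lower) and 4 in CO (2 higher, 2 lower), and in RPMI8226 4 of 14 in TSW (2 higher, 2 lower) and 4 in CO (3 higher, 1 lower), with medians of 0.0135, 0.0358, 0.168 and 0.116, beside 10.6%, 11.8%, 32.5% and 39.3% of all genes and medians of 0.0143, 0.00534, -0.0785 and -0.0944. MXD1, which competes with MYC for its partner MAX, rose in RPMI8226 from an RPKM of 4.80 ± 0.007 (SD, n = 2) to 7.90 ± 0.1035 in TSW and 12.2 ± 0.09275 in CO, where MYC fell. In MM.1S CO the call of MXD1 (0.65) was lost without replicate 1 of MONO (0.38) or without replicate 1 (0.56), 2 (0.68, adjusted p = 0.0516) or 3 (0.70, adjusted p = 0.0577) of CO, with quantile normalization (0.56), with no expression filter (adjusted p = 0.0595) and with only the 2 conditions compared (adjusted p = 0.0645). MXD3 (0.62 and 0.69) and, in CO, MXI1 (0.68; 0.43 and 0.53 in MM.1S, under the fold threshold) also rose in RPMI8226, and MXD3 was lost without replicate 2 of MONO in TSW (0.53) and without replicate 2 of CO in CO (0.48). MXD4 (-0.82 and -0.70) and MYCL (-0.88 and -0.98) fell in MM.1S. AURKA, a mitotic kinase that stabilizes MYC proteins, fell in RPMI8226 (-0.66, with median-of-ratios scaling -0.58 and not called, and -0.78) and rose in MM.1S CO (0.70), and CIP2A fell in RPMI8226 TSW (-0.66), a call lost without replicate 1 of MONO (-0.55) or replicate 2 of TSW (-0.51). MAX had -0.33 and -0.15 in MM.1S and -0.46 and -0.28 in RPMI8226, and MNT 0.07 and 0.10, and -0.30 and -0.27, none called.

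Of 10 relatives and targets of MAF, 1 of 7 was called in MM.1S TSW (higher) and 2 in CO (1 higher, 1 lower), and 6 of 8 in RPMI8226 TSW (3 higher, 3 lower) and 5 in CO (2 higher, 3 lower), with medians of 0.132, 0.17, 0.0433 and -0.00685. The shares of all genes called, 10.6%, 11.8%, 32.5% and 39.3%, differ between lines as well. MAFF, a small MAF protein, rose in both lines (0.87 and 0.84 in MM.1S, 1.39 and 1.64 in RPMI8226), although in RPMI8226 MONO its mean RPKM of 0.953 was under the filter value, which it passed through TSW and CO. The MAF target CCND2, cyclin D2, fell in RPMI8226 from an RPKM of 145.7 ± 1.57 (SD, n = 2) to 72.3 ± 1.04 and 73.3 ± 0.219, although MAF was higher, and had 0.53 and 0.37 in MM.1S, under the fold threshold, a difference between lines of -1.53 in TSW (adjusted p = 2.23e-06). The integrin chain ITGB7 rose in RPMI8226 TSW (0.83) and was lower in MM.1S CO (-0.63), a call lost without replicate 1 of MONO (-0.58) or replicate 1 of CO (-0.57) and with quantile normalization (-0.36). The chemokine receptors CCR1 (1.98 and 2.02) and CX3CR1 (-2.18 and -1.82) moved in opposite directions in RPMI8226, and MAFK fell there (-0.63 and -0.84), in TSW not without replicate 1 of MONO (-0.55) or with median-of-ratios scaling (-0.56). In CO against TSW limma called 0 genes of each of the 7 lists in both lines, where voom on the recovered fragments called at most 1 per list and the unadjusted p was under 0.05 for at most 4 genes of a list in MM.1S and at most 14 in RPMI8226.

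**Figure D4:**
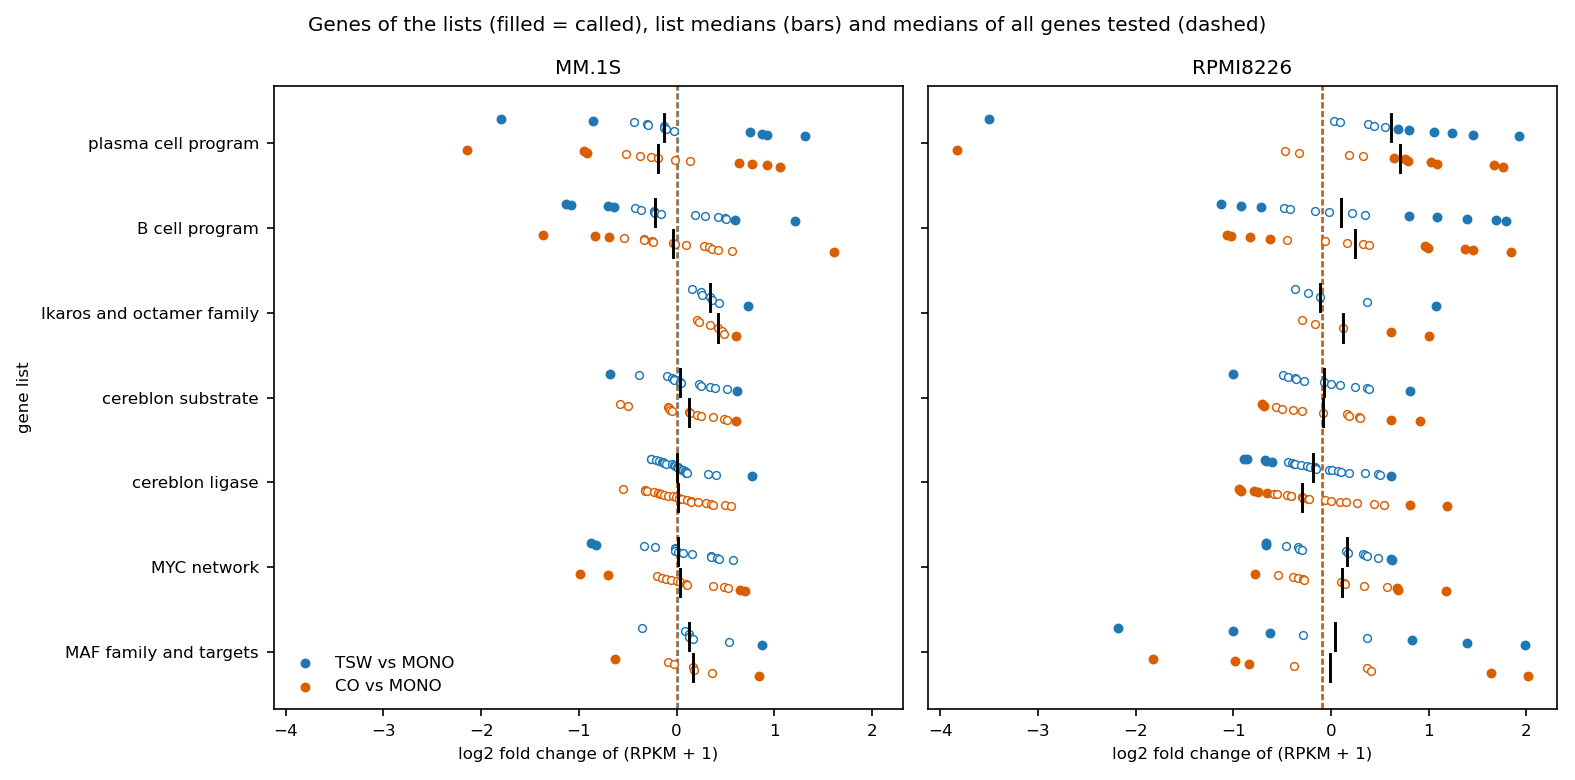
Log2 fold changes of RPKM + 1 for the tested genes of the 7 lists, TSW and CO against MONO, with filled points for called genes, bars at list medians and dashed lines at the medians of all genes tested. The medians of the cereblon ligase in MM.1S lie close to those of all genes, while genes of the plasma cell list of RPMI8226 lie mostly to the right and TNFRSF17 lies far to the left in both lines.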

How the data were processed

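The deposited values were log2 of RPKM + 1 with 0.0001 added, although plain RPKM had been assumed in the design. Per the submitters' processing notes, the authors aligned reads to hg38 with Subread and counted fragments with featureCounts. After removing the offset, limma 3.58.1 (R 4.3.3, lmFit and eBayes with a trend) was fitted per line to genes whose RPKM averaged 1 or more. Differences between lines came from an interaction over 15 libraries, with p adjusted by Benjamini-Hochberg in each comparison. Fragments were recovered from the spacing of values (100% of values whole within 0.05). Counts were also simulated with the same spread for all genes and libraries, no library standing apart and only changes larger than the fold threshold. There, 190 of 200 changed genes were found in each line, with 0 unchanged genes called in MM.1S and 5 in RPMI8226. The data hold a library that stood apart and changes near the threshold, so these numbers are not error rates for the calls here. Alternatives were another pseudocount, filter, scaling (median-of-ratios, quantile), trend, fold threshold, replicate block, fits of 2 conditions, voom on fragments and leaving out each library. Members and lists were chosen with earlier results of these data known. Named genes were the 10 members, genes set by role, up to 3 called genes per list and direction, and the 3 closest by correlation. Python 3.11.15, numpy 2.4.6, pandas 2.3.3 and matplotlib 3.10.9 were used, with GENCODE 44 for exon overlaps: exons of 6 of the 10 genes (IKZF1, POU2AF1, MYC, PAX5, BCL6 and CRBN) are overlapped by a gene on the other strand, and whether counting used the strand is not given in the sources used here.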

Additional observations from a re-analysis of the deposited data

Results flagged for a closer look

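Each difference here passed the test of RPMI8226 minus MM.1S over 15 libraries (limma, adjusted p under 0.05). In TSW against MONO the log2 fold changes differed for IRF4 by -1.337 (adjusted p = 2.52e-05), MYC by -1.219 (3.33e-05), MAF by -0.6911 (0.0143), IKZF1 by -0.6151 (0.0236), BCL6 by -0.3815 (0.0134) and POU2AF1 by 0.35 (0.0449). In CO against MONO they differed for MYC by -1.525 (3.19e-06), IRF4 by -1.045 (0.000154), MAF by -0.6562 (0.0163), POU2AF1 by 0.5796 (0.0024), IKZF1 by -0.5068 (0.04998) and PRDM1 by 0.4389 (0.0446). Both comparisons share the MONO libraries.

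With each of the 15 libraries left out in turn, IRF4 and MYC passed in all 15 fits in both comparisons, as did POU2AF1 in CO. MAF in TSW was lost without RPMI8226 MONO 1 (adjusted p = 0.0644) or TSW 2 (0.0577), and in CO without RPMI8226 MONO 1 (0.0692) or CO 2 (0.0632). BCL6 in TSW was lost without RPMI8226 TSW 2 (0.0507), and with a pseudocount of 0.1 its difference was -0.10 (0.727). On the fold scale BCL6 ran the other way, with a ratio of mean RPKM of 32.2 in RPMI8226 and 25.8 in MM.1S and voom log2 fold changes of 4.94 and 4.72. IKZF1 in TSW was lost in 5 fits (to 0.0708), those without MM.1S TSW 3, RPMI8226 MONO 1 or 2, or RPMI8226 TSW 1 or 2. IKZF1 in CO was lost in 12 (to 0.163) and passed without MM.1S MONO 1, 2 or 3. POU2AF1 in TSW was lost in 9 (to 0.174) and passed without MM.1S MONO 1 or 3, MM.1S TSW 2, MM.1S CO 1 or 3, or RPMI8226 TSW 2. PRDM1 in CO was lost in 13 (to 0.136) and passed without MM.1S MONO 1 or CO 1. Over the 15 fits the difference of IKZF1 in CO lay between -0.6216 and -0.3142. The cause of the differences was not tested.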

How the results depend on the processing

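Of the log2 fold changes under the alternatives, 3000 kept direction and side of the threshold, 41 lost their call, 9 gained one and 14 reversed, from 170 values. For differences between lines these were 481, 49, 1 and 9. Without a fold threshold 5 of the 10 genes were called in MM.1S TSW against MONO (IRF4 gained), 5 in CO against MONO (IKZF3 and POU2AF1 gained), 8 in RPMI8226 TSW against MONO (IKZF1, IKZF3 and MAF gained), 8 in CO against MONO (IKZF1 gained) and 2 in RPMI8226 CO against TSW (MYC and MAF). With a mean RPKM of at least 5 BCL6 was not tested, which left 3, 2, 4 and 6 against MONO. Voom without a filter, chosen after seeing the data, added PAX5 in MM.1S TSW (5 genes), RPMI8226 TSW (6) and RPMI8226 CO (8).

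With each library left out, the number called was 4 in MM.1S TSW, 2 to 3 in CO (2 without MONO 1, where PRDM1 had 0.53), 5 in RPMI8226 TSW and 7 in CO against MONO, and 0 in CO against TSW. Genes that differed between lines numbered 3 to 7 for TSW against MONO, 3 to 6 for CO against MONO and 0 for CO against TSW.

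Reversals were of values near 0, and their cause was not tested. Quantile normalization gave MYC in MM.1S 0.05185 in TSW and 0.1583 in CO, and POU2AF1 in RPMI8226 CO against TSW 0.06033. A pseudocount of 0.1 gave the line difference of BCL6 in CO against MONO as 0.2402. Leaving out libraries, the ranges that crossed 0 in MM.1S were -0.1059 to 0.005447 for MYC in TSW against MONO, -0.06196 to 0.09664 for MYC and -0.01122 to 0.1836 for IRF4 in CO against MONO, and -0.01092 to 0.1477 for MYC in CO against TSW. In RPMI8226 CO against TSW they were -0.09986 to 0.1267 for IRF4, -0.0004703 to 0.1426 for IKZF1, -0.1548 to 0.01241 for POU2AF1 and -0.001659 to 0.08116 for CRBN. For line differences they were -0.07408 to 0.1537 for IKZF3 in TSW against MONO and -0.0916 to 0.173 for MAF in CO against TSW.

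Over all genes, without a fold threshold 2769 and 3175 genes were called in MM.1S TSW and CO against MONO (1080 and 1196 with it), 6921 and 7422 in RPMI8226 (3352 and 4056) and 2849 in RPMI8226 CO against TSW (443). Voom without a filter called 1936 and 2615 in MM.1S, 5215 and 6377 in RPMI8226, and 393 and 1162 in CO against TSW (42 and 443). In CO against TSW, MM.1S had 134 without a filter and 7 at a mean RPKM of at least 5, and RPMI8226 had 671 with voom and 719 without TSW 1. RPMI8226 CO against TSW had 196 higher and 247 lower, and 249 and 173 with quantile normalization. Against MONO, RPMI8226 TSW had 1500 higher and 1852 lower, and 1710 and 1538 with median-of-ratios scaling. For RPMI8226 CO these were 1693 and 2363, and 1994 and 1925. With that scaling the medians over all genes were -0.008396 in TSW and 6.448e-05 in CO, in place of -0.0785 and -0.0944.

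Calls lost only with another scaling (median-of-ratios or quantile) were CUL4A in RPMI8226 TSW (-0.53 and -0.54), AURKA in RPMI8226 TSW (-0.58, median-of-ratios), ARID2 in RPMI8226 CO (-0.58 and -0.56) and GSPT1 in RPMI8226 CO (-0.57, quantile). Calls lost with another scaling and also without a library were ITGB7 in MM.1S CO (-0.36, quantile), SPI1 in MM.1S TSW (0.58 and 0.53), MAFK in RPMI8226 TSW (-0.56, median-of-ratios), RAB28 in MM.1S TSW and CO (0.575 and 0.58, quantile), and MXD1 and POU2F2 in MM.1S CO (0.56 and 0.50, quantile). The last 2 were also lost with no expression filter and with only the 2 conditions compared.

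Labels share replicate numbers only. With a replicate block the member counts were 4, 3 and 0 in MM.1S and 5, 7 and 0 in RPMI8226, as without it, and PRDM1 was lost as a line difference in CO against MONO (adjusted p = 0.0702). Correlations of differences between same-numbered libraries were -0.38 to 0.286 in MM.1S and 0.164 to 0.271 in RPMI8226.

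Depth limits PAX5 (1 to 15 fragments in MM.1S) and BCL6 in MONO (9 to 19). RPMI8226 has 2 libraries per condition, and a fit without 1 of them assumes that the lone library varies like the other groups. Protein levels and cereblon activity were not analysed here.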
